A study of Mus musculus with 16 samples.

Results

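The genes of the circadian clock were followed in chondrocyte-enriched cells, a culture obtained from the epiphyses of newborn mice. The 10 members were taken by name, with earlier results of these data known: *Per1*, *Per2* and *Per3*, *Cry1* and *Cry2*, *Nr1d1* and *Nr1d2*, *Dbp*, *Clock*, and *Bmal1*, which is called *Arntl* in older annotations. All 10 were found among the 55414 genes counted in each library, and all 10 passed the filter of at least 10 summed counts in every comparison. The 16 libraries fell into 4 groups of 4, labelled biological replicates. Control cells came from wild-type littermates on a C57BL/6 background and were given vehicle, which was PBS, or TNFα (50 ng/ml), and collected after 6 h. *Notch2 tm1.1Ecan* cells came from heterozygous mice, with male and female newborns pooled as in the controls, and were treated in the same ways. In every cell of these mice, a stop codon placed in 1 copy of *Notch2* truncates the protein, so that NOTCH2 is made without its PEST domain and is degraded slowly. All cultures were grown in 10% fetal bovine serum before treatment. The sample annotation gives serum-free medium for the groups given TNFα only, whereas the study's own account gives the absence of serum for vehicle and TNFα alike. TNFα and serum removal cannot be told apart in the comparison of TNFα with vehicle if the annotation is right. The time of day at which cells were collected is not given in the sources used here, and there is 1 time point, so phase, period and amplitude were not measured.

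The clock is a loop of transcription. CLOCK and BMAL1 bind DNA together and activate the Per and Cry genes, whose proteins then return to the nucleus and repress CLOCK and BMAL1. In a second loop, the same pair activates *Nr1d1* and *Nr1d2*, which encode the nuclear receptors REV-ERBα and REV-ERBβ, and these repress *Bmal1* at elements that the ROR receptors use to activate it. DBP is an activator that binds D-box elements and is driven by CLOCK and BMAL1. Chondrocytes are known to carry such a clock, and it can be set in culture by serum and by glucocorticoids.

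The 4 promoter stretches printed here are those of the members with a match to the E-box (letters CACGTG, bound by CLOCK and BMAL1), the D-box (TTATGNAA), or, for *Nr1d2*, a member that rose with TNFα, the core of the ROR element (AGGTCA). They hold the 250 bases before the RefSeq start of the gene on GRCm38.p6, read 5′ to 3′ on the strand of the gene, with matches to these 3 motifs on either strand in capitals.
*Per1*, chr11:69098699-69098948, plus strand, which holds 1 E-box, 1 D-box and 1 ROR element core on the opposite strand: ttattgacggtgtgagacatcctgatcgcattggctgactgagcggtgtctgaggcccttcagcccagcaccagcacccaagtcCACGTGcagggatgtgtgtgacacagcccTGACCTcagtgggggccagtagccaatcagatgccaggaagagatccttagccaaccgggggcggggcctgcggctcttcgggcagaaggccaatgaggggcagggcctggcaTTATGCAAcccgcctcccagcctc
*Per3*, chr4:151044666-151044915, minus strand, which holds 2 D-boxes: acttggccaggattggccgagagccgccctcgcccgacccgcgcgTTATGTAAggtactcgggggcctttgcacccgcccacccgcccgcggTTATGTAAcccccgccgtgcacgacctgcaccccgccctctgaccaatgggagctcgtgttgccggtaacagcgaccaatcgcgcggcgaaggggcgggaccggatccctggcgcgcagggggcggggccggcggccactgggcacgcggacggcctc
*Cry1*, chr10:85185055-85185304, minus strand, which holds 1 E-box: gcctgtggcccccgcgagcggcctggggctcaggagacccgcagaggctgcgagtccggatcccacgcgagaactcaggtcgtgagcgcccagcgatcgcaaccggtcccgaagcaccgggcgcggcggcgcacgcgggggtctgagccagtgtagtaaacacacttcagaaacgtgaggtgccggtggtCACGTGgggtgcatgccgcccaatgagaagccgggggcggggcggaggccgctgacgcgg
*Nr1d2*, chr14:18239107-18239356, minus strand, which holds 1 ROR element core: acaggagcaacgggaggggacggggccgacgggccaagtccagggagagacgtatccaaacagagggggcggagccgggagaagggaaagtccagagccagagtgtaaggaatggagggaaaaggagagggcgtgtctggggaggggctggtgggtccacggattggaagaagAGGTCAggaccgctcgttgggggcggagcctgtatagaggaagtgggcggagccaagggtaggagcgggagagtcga

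RefSeq windows were matched for 9 of the 10 members, in 13 windows because *Per1*, *Clock* and *Bmal1* have more than one start, and *Per2* had none. An E-box was found in 2 of the 9 members (22.2%), against 6.02% of all 32851 RefSeq windows of the same 250 bases. A D-box was found in 2 (22.2%), against 3.07% of all windows. The ROR element core was found in 3 (33.3%), *Per1*, *Nr1d2* and *Clock*, against 14% of all windows. Of these, *Clock* fell with TNFα, and its stretch is not printed. The cAMP response element (TGACGTCA) was found in 0 of the 9 members, against 1.55% of all windows. The consensus κB site, the element of the NF-κB factors through which TNFα acts, was found in *Cry2* and *Nr1d2* (22.2%), against 16.8% of all windows, and is left in lower case in the *Nr1d2* stretch. The *Cry2* matches to the κB site overlap each other, and no other match overlapped another. These are matches of letters and not sites shown to be bound, and a member with several windows had more chances of a match. No E-box was matched in *Nr1d1*, *Nr1d2* or *Dbp*, and no ROR element core in *Bmal1*. Bases outside these windows were not searched.

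On GRCm39, the genes lie on 8 chromosomes and are annotated as protein coding. Of these, 3 share exonic bases with an expressed gene on the opposite strand, and the strand setting used for counting is not given in the sources used here. *Nr1d1* (chr11:98658752-98666188, minus strand) shares 1694 of its 3242 exonic bases with *Thra*, which encodes a thyroid hormone receptor. *Clock* (chr5:76342860-76452846, minus strand) shares 2047 of 17251 with *Tmem165*, and *Dbp* (chr7:45354512-45359627, plus strand) shares 539 of 3470 with *Sphk2*. The values of these partners are given beside the results for TNFα and for genotype.

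Totals ranged from 3439726 to 44237300 counts on genes, with a median of 17062419 and the lowest total in *Notch2 tm1.1Ecan* TNFα replicate 4. In that library the members had between 35 counts for *Cry1* and 181 for *Nr1d2*, against 199 to 1015 in the other 3 libraries of its group. Treatment was read from 5 genes that TNFα induces, and all 5 rose in both genotypes. *Icam1*, an adhesion molecule, was at 27.3 to 41.0 CPM (counts scaled to library size) in 7 vehicle libraries and at 1761 to 2780 CPM with TNFα. Control vehicle replicate 4 stood apart at 447 CPM, and control TNFα replicate 4 stood apart at 544 CPM of *Ccn2*, a serum-responsive matrix gene at 155 to 197 CPM in the other TNFα libraries. The results on the clock genes that use control cells are therefore also given without them, and those on other genes named from the clock, serum and glucocorticoid lists where the change moved by more than 1.5-fold or a call was lost. Libraries were also placed by principal components, the axes of largest spread over genes. On the first (78.3% of the variance), control vehicle replicate 4 was at -11.7, against -64.0 to -61.9 for the rest of its group. Control TNFα replicate 4 was at 44.0, against 56.2 to 59.5. On the second (6.62%), *Notch2 tm1.1Ecan* TNFα replicate 4 was at -38.0, against -11.2 to -10.5 for the rest of its group. The *Notch2* counts do not read the stop codon. With vehicle, *Notch2* was at 105.1 to 154 CPM in control and 140 to 167 CPM in *Notch2 tm1.1Ecan* cells. That difference was not called (log2 0.23 ± 0.11 SE, adjusted p = 0.283). With TNFα, *Notch2* was at 126.4 to 186.3 CPM in control and 205.7 to 233.7 CPM in *Notch2 tm1.1Ecan* cells. These groups did not overlap, as was so for 15% of all genes in that comparison.

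With vehicle, in control cells, the per-length level of *Nr1d1* was highest, at 7.08 ± 0.742 CPM per kb of exon (SD, n = 4). *Cry1*, *Clock*, *Cry2*, *Nr1d2*, *Dbp* and *Per1* followed, from 4.39 ± 0.534 down to 3.53 ± 0.226 CPM per kb, and no neighbours among these 6 differed beyond the larger of their SDs. *Per3* was lower, at 2.43 ± 0.280 CPM per kb, and *Bmal1* (1.79 ± 0.282) and *Per2* (1.78 ± 0.134) were lowest and did not differ beyond their spread. With TNFα the order in control cells was led by *Nr1d1* (8.43 ± 0.996), *Dbp* (7.52 ± 0.609) and *Nr1d2* (7.39 ± 0.307), whose neighbours did not differ beyond the larger SD. *Per3* came next at 4.63 ± 0.137 CPM per kb, and *Clock* (2.30 ± 0.231) and *Bmal1* (1.28 ± 0.0096) were last. *Nr1d1* also led in *Notch2 tm1.1Ecan* cells, at 6.08 ± 0.871 CPM per kb with vehicle and 8.12 ± 1.40 with TNFα. All exons of a gene in the annotation count toward its length, so a gene with long rarely used exons has a lower per-length level.

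**Figure D1:**
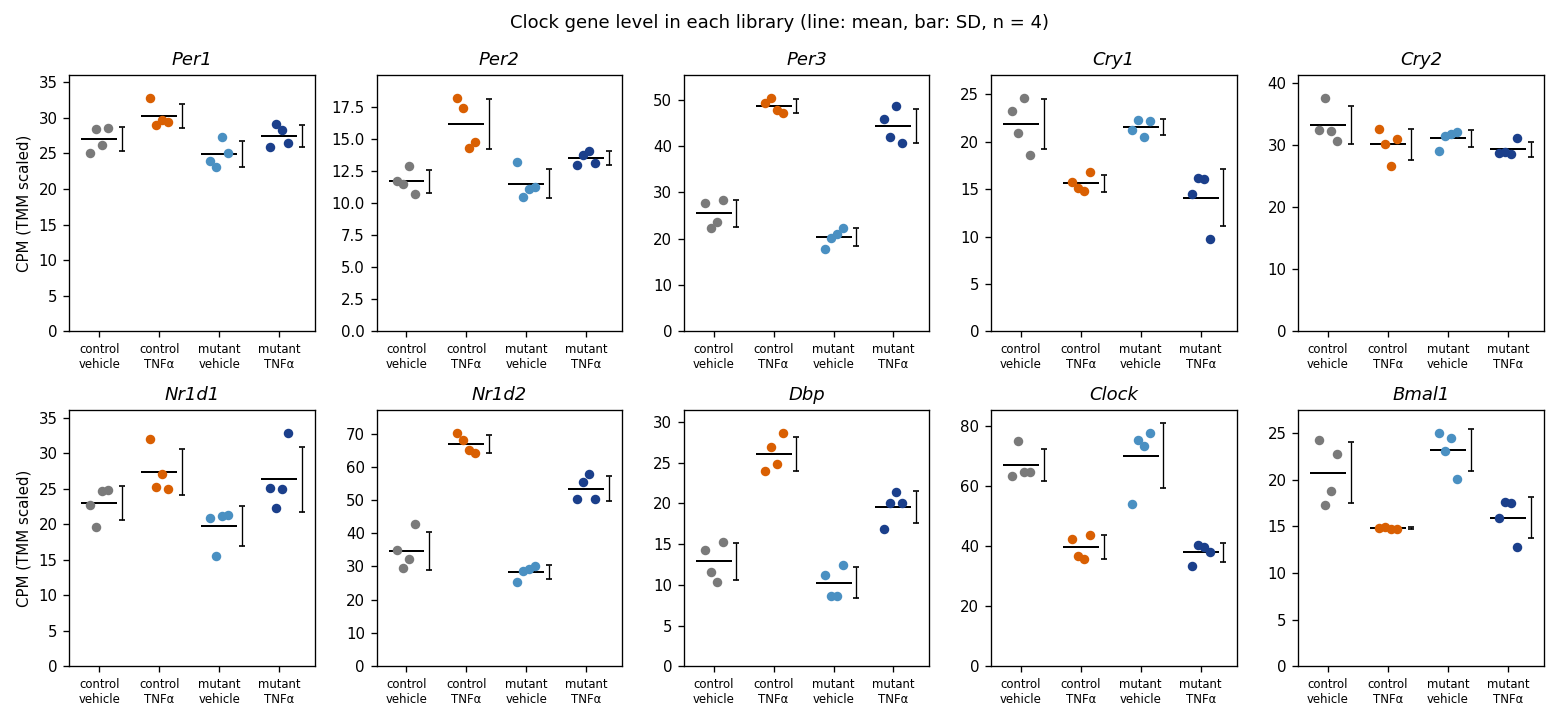
Level of each clock gene in each library in CPM, counts scaled to library size (vertical axes, each starting at 0 with its own scale), by group on the horizontal axes (mutant stands for *Notch2 tm1.1Ecan*), with 4 points per group, a line at the mean and a bar of 1 SD. *Per3*, *Nr1d2* and *Dbp* sit higher with TNFα than with vehicle in both genotypes, and *Cry1*, *Clock* and *Bmal1* sit lower, with no overlap between the treatments.

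TNFα against vehicle asked how the inflammatory cytokine changed these genes. In control cells, 9 of the 10 members were called at an adjusted p under 0.05, with *Per1*, *Per2*, *Per3*, *Nr1d1*, *Nr1d2* and *Dbp* higher and *Cry1*, *Clock* and *Bmal1* lower. Of all 19338 genes tested, 44.2% were called, 23.3% higher and 20.9% lower, so that the members' share of calls is read against a treatment that moved many genes. A stricter filter on counts (filterByExpr) kept 14478 genes, of which 8157 were called, a larger share. The groups did not overlap for 9 members, against 41.9% of all genes. The median log2 change of the members was 0.24, against 0.039 over all genes. The members called in *Notch2 tm1.1Ecan* cells were the same 9, with the same directions, against 44.5% of 19633 genes (22.6% higher and 21.9% lower). The stricter filter kept 14509 genes there, of which 8255 were called, again a larger share. The groups did not overlap for 8 members, against 40.2% of all genes, and *Per1* was the called member whose groups overlapped. Median changes were 0.25 for the members and 0.026 for all genes. A log2 change of at least 1 was reached by 1 called member in each genotype, *Dbp* in control cells (11.8% of all genes) and *Per3* in *Notch2 tm1.1Ecan* cells (13.9%). In these bulk libraries, fewer cells of a type and less RNA per cell cannot be told apart.

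The Per genes encode the repressors that give the loop its delay. *Per3* was at 27.6, 22.3, 23.7 and 28.3 CPM in the 4 control vehicle libraries and at 49.2, 50.3, 47.7 and 47.2 CPM in the 4 control TNFα libraries. Every TNFα library lay above every vehicle library, and the change was 1.96-fold (log2 0.97 ± 0.074 SE, adjusted p = 7.12e-10). For *Notch2 tm1.1Ecan* cells, *Per3* was at 17.8, 20.2, 21.0 and 22.3 CPM with vehicle and 45.9, 41.9, 48.5 and 40.6 CPM with TNFα, again with a gap between the groups. The change was 2.26-fold (log2 1.18 ± 0.085, adjusted p = 4.42e-12). *Per2* rose by less. It was at 11.7, 11.5, 12.9 and 10.7 CPM in control vehicle libraries and 18.2, 17.4, 14.3 and 14.7 CPM in control TNFα libraries (log2 0.51 ± 0.10, adjusted p = 0.000301). In *Notch2 tm1.1Ecan* cells it was at 10.5 to 13.2 CPM with vehicle and 12.95 to 14.1 CPM with TNFα, and the rise (log2 0.30 ± 0.10, adjusted p = 0.0197) was lost without vehicle replicate 2, 3 or 4 or TNFα replicate 2 or 3 (adjusted p = 0.0554 to 0.0700). *Per1* was the least changed of the called members, at 25.0 to 28.5 CPM with vehicle and 29.0 to 32.8 CPM with TNFα in control cells (log2 0.20 ± 0.072, adjusted p = 0.0237), and at 23.1 to 27.3 and 25.9 to 29.1 CPM in *Notch2 tm1.1Ecan* cells (log2 0.20 ± 0.083, adjusted p = 0.0486). Neither *Per1* call held with DESeq2 (adjusted p = 0.0557 and 0.0723). The first was also lost without control vehicle replicate 1 or 3 or control TNFα replicate 1 (adjusted p = 0.122, 0.0716 and 0.0844), and the second without *Notch2 tm1.1Ecan* vehicle replicate 2 or 4 or TNFα replicate 2 or 3 (adjusted p = 0.142, 0.0938, 0.169 and 0.130).

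The Cry genes encode the partners of the PER proteins, and they did not move with the Per genes. *Cry1* was at 23.3, 21.0, 24.6 and 18.6 CPM in control vehicle libraries and at 15.8, 15.1, 14.8 and 16.8 CPM with TNFα, so that each TNFα value lay below each vehicle value (log2 -0.44 ± 0.091, adjusted p = 0.000371). In *Notch2 tm1.1Ecan* cells it was at 21.3, 22.3, 20.5 and 22.2 CPM with vehicle and 14.5, 16.2, 16.1 and 9.74 CPM with TNFα (log2 -0.48 ± 0.10, adjusted p = 0.000355). The lowest of these came from the library with the lowest total. *Cry2* was the member not called in either genotype. It was at 30.6 to 37.6 CPM with vehicle and 26.7 to 32.6 CPM with TNFα in control cells (log2 -0.097, 95% interval -0.26 to 0.063), and at 29.1 to 32.1 and 28.6 to 31.2 CPM in *Notch2 tm1.1Ecan* cells (log2 -0.048, interval -0.20 to 0.11).

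The REV-ERB genes and *Dbp* are direct targets of CLOCK and BMAL1. *Nr1d2* was at 34.9, 29.5, 32.2 and 42.7 CPM with vehicle and 70.2, 68.1, 64.9 and 64.3 CPM with TNFα in control cells. The groups stood far apart, with a 1.97-fold change (log2 0.98 ± 0.097, adjusted p = 4.75e-06). *Notch2 tm1.1Ecan* cells had 25.4, 28.6, 29.2 and 30.3 CPM with vehicle and 50.2, 55.3, 57.7 and 50.4 CPM with TNFα, a 1.96-fold change (log2 0.97 ± 0.078, adjusted p = 4.47e-11). *Dbp* was at 14.3, 11.6, 10.3 and 15.3 CPM with vehicle and 23.9, 26.9, 24.9 and 28.7 CPM with TNFα in control cells, a 2.08-fold change (log2 1.06 ± 0.11, adjusted p = 2.22e-07). Its values in *Notch2 tm1.1Ecan* cells were 11.2, 8.67, 8.65 and 12.5 CPM with vehicle and 16.8, 20.04, 21.4 and 20.04 CPM with TNFα (log2 0.97 ± 0.12, adjusted p = 2.54e-07). Both genes had higher values in every TNFα library than in any vehicle library of their genotype. *Nr1d1*, the other REV-ERB gene, was at 19.7 to 24.8 CPM with vehicle and 25.0 to 32.0 CPM with TNFα in control cells (log2 0.29 ± 0.089, adjusted p = 0.0116), and this call was lost without control vehicle replicate 2 or control TNFα replicate 1 (adjusted p = 0.0580 and 0.0622). In *Notch2 tm1.1Ecan* cells it was at 15.5 to 21.3 and 22.3 to 32.8 CPM (log2 0.41 ± 0.11, adjusted p = 0.00291). The gene on the strand opposite to *Nr1d1*, *Thra*, went the other way, at log2 -0.13 ± 0.050 (adjusted p = 0.0368) in control and -0.22 ± 0.062 (adjusted p = 0.00447) in *Notch2 tm1.1Ecan* cells. *Sphk2*, opposite *Dbp*, was not called (log2 -0.013 ± 0.063 and -0.17 ± 0.075).

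The activators *Clock* and *Bmal1* both fell. *Clock* was at 63.4, 75.0, 64.8 and 64.6 CPM in control vehicle libraries and at 42.3, 36.6, 35.8 and 43.8 CPM in control TNFα libraries, 0.610 times the vehicle level (log2 -0.71 ± 0.073, adjusted p = 1.21e-07). In *Notch2 tm1.1Ecan* cells it was at 54.1, 75.1, 73.4 and 77.6 CPM with vehicle and 33.4, 40.4, 39.6 and 38.1 CPM with TNFα, 0.558 times the vehicle level (log2 -0.84 ± 0.11, adjusted p = 7.68e-06). *Tmem165*, which overlaps *Clock* on the opposite strand, also fell, by 0.26 on the log2 scale in control cells and by 0.22 in *Notch2 tm1.1Ecan* cells (adjusted p = 0.00115 and 0.0104). The part of the overlap in the *Clock* result was not tested. *Bmal1* was at 24.2, 17.3, 18.8 and 22.8 CPM with vehicle and 14.8, 14.9, 14.7 and 14.7 CPM with TNFα in control cells (log2 -0.45 ± 0.099, adjusted p = 0.000685). The vehicle values were spread and the TNFα values were close to each other, with no overlap. *Bmal1* in *Notch2 tm1.1Ecan* cells was at 25.0, 23.1, 24.5 and 20.04 CPM and at 15.9, 17.6, 17.5 and 12.8 CPM (log2 -0.42 ± 0.10, adjusted p = 0.000954).

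Without both control replicates 4, which stood apart on *Icam1* and *Ccn2*, the members called in control cells were the same 9. The log2 changes then were 1.03 for *Per3*, 1.1 for *Nr1d2*, 1.1 for *Dbp*, -0.79 for *Clock*, -0.56 for *Cry1* and -0.41 for *Bmal1*. They were 0.24 for *Per1*, 0.50 for *Per2* and 0.35 for *Nr1d1*, and *Cry2*, still not called, was at -0.16 (adjusted p = 0.126).

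**Figure D2:**
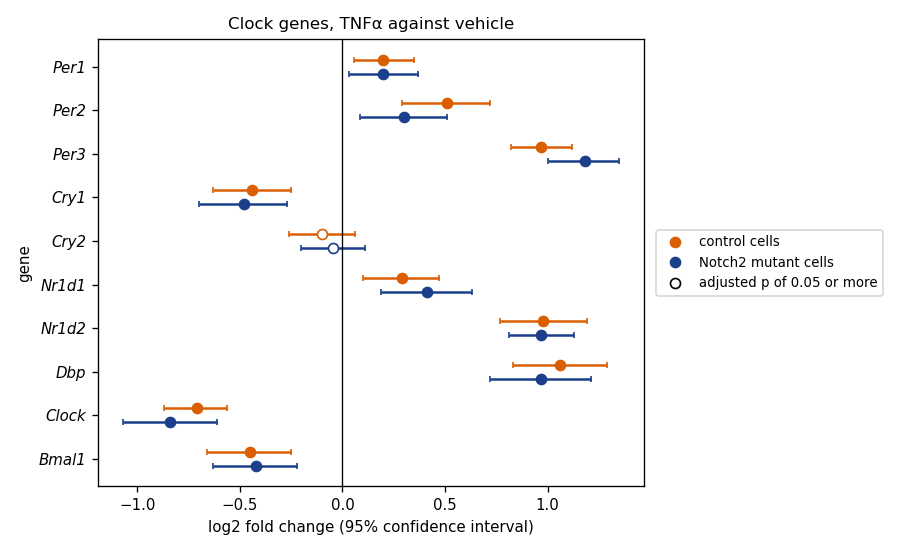
log2 fold change of TNFα over vehicle for each clock gene (horizontal axis, points, with bars of the 95% confidence interval) in control and *Notch2 tm1.1Ecan* cells, with open points for an adjusted p of 0.05 or more. The changes run from -0.84 for *Clock* to 1.18 for *Per3*, both in *Notch2 tm1.1Ecan* cells, and the open points are those of *Cry2*.

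Some members rose while others fell. The ratio of a pair of genes within a library does not depend on how libraries were scaled. The pairs were chosen after the values were seen, and the ratios are given as a description. There were 0.549 to 0.672 *Dbp* counts per *Bmal1* count in control vehicle libraries and 1.62 to 1.95 in control TNFα libraries. The ratio in *Notch2 tm1.1Ecan* cells was 0.353 to 0.622 with vehicle and 1.06 to 1.57 with TNFα. *Per3* counts per *Clock* count went from 0.298 to 0.438 with vehicle to 1.08 to 1.37 with TNFα in control cells, and from 0.268 to 0.329 to 1.04 to 1.37 in *Notch2 tm1.1Ecan* cells. Every TNFα library thus held more *Per3* than *Clock* counts, and every vehicle library fewer. Within gene families the ratios moved by less: *Nr1d2* counts per *Nr1d1* count were 1.30 to 1.73 and 2.2 to 2.7 in control cells, and 1.21 to 1.85 and 1.53 to 2.48 in *Notch2 tm1.1Ecan* cells, where the treatments overlapped.

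**Figure D3:**
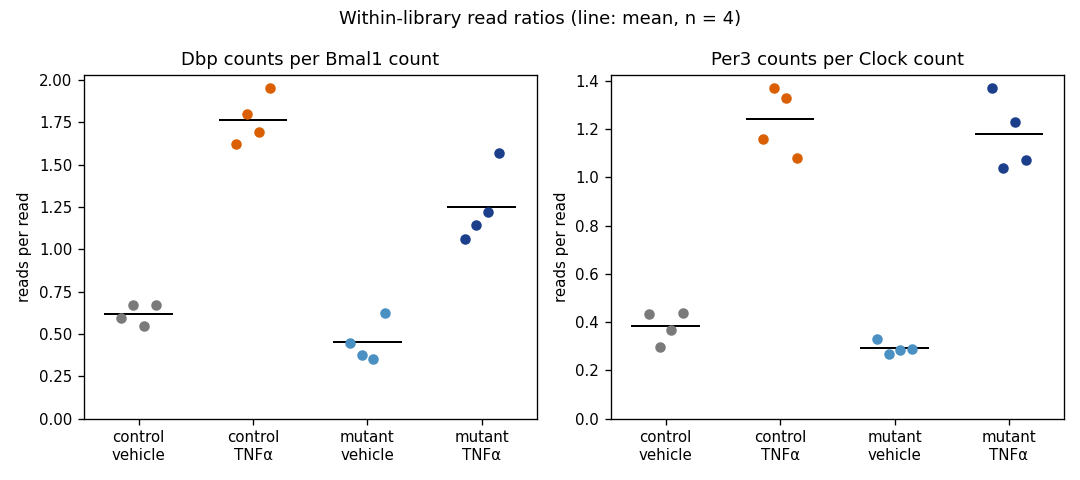
Counts of one clock gene per count of another within each library (vertical axes from 0), for *Dbp* over *Bmal1* and for *Per3* over *Clock*, by group, with 4 points per group and a line at the mean. The control vehicle points of *Dbp* over *Bmal1* lie at 0.549 to 0.672 and the control TNFα points at 1.62 to 1.95, and both plots show a gap between treatments in each genotype.

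Genotype was compared within each treatment. With vehicle, 1 of the 10 members was called in *Notch2 tm1.1Ecan* against control cells, *Per3*, which was lower. Of 19432 genes tested, 10.5% were called (6.19% higher and 4.35% lower), and 16.2% had groups that did not overlap, as 1 member did. *Per3* was at 17.8 to 22.3 CPM in *Notch2 tm1.1Ecan* and 22.3 to 28.3 CPM in control vehicle libraries (log2 -0.32 ± 0.089, adjusted p = 0.0182), and the nearest libraries of the groups were both at 22.34 CPM to 2 decimals. The call was lost without control vehicle replicate 1 or 4 or *Notch2 tm1.1Ecan* vehicle replicate 2 (adjusted p = 0.0824, 0.0549 and 0.0501). *Nr1d2* (log2 -0.29 ± 0.095, adjusted p = 0.0584), *Dbp* (log2 -0.33 ± 0.14, adjusted p = 0.176) and *Nr1d1* (log2 -0.22 ± 0.10, adjusted p = 0.195) had lower means but were not called. DESeq2 called *Nr1d2* too (adjusted p = 0.0377). Without control vehicle replicate 4, 0 of the 10 members were called by edgeR, with *Per3* at log2 -0.28, *Nr1d2* at -0.19, *Dbp* at -0.24, *Nr1d1* at -0.19 and the other 6 between -0.14 and 0.17. The other 6 members had log2 differences between -0.12 and 0.14, and among these the interval was widest for *Clock*, from -0.18 to 0.32. *Clock* was called higher without *Notch2 tm1.1Ecan* vehicle replicate 1 (log2 0.17, adjusted p = 0.0365), the library with the lowest *Clock* value of its group. The genes opposite *Nr1d1*, *Dbp* and *Clock* were not called with vehicle, with *Thra* at log2 -0.027 ± 0.050, *Sphk2* at 0.026 ± 0.069 and *Tmem165* at -0.025 ± 0.059 over all 8 libraries. The median log2 difference was -0.11 for the members and -0.002 for all genes.

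With TNFα, 2 of the 10 members were called in *Notch2 tm1.1Ecan* against control cells, *Nr1d2* and *Dbp*, both lower. Of 19227 genes tested, 9.94% were called (5.63% higher and 4.31% lower), and 15% had groups that did not overlap, as 2 members did. The 4 *Nr1d2* values of 50.2 to 57.7 CPM in *Notch2 tm1.1Ecan* cells lay below the 64.3 to 70.2 CPM of control cells (log2 -0.30 ± 0.066, adjusted p = 0.00284). The 4 *Dbp* values of 16.8 to 21.4 CPM lay below the 23.9 to 28.7 CPM of control cells (log2 -0.41 ± 0.092, adjusted p = 0.00319). Both calls held without each library in turn, with adjusted p values of at most 0.0233 for *Nr1d2* and 0.0311 for *Dbp*, and without control TNFα replicate 4 they were 0.00126 and 0.00864, at log2 -0.33 and -0.37. *Sphk2*, opposite *Dbp*, was also at a lower mean but was not called (log2 -0.12 ± 0.071, adjusted p = 0.351), and its part in the *Dbp* difference was not tested. *Thra* (log2 -0.10 ± 0.062) and *Tmem165* (log2 0.024 ± 0.068) were not called. *Per2* had a log2 difference of -0.23 ± 0.10 (adjusted p = 0.183), and the remaining 7 lay between -0.11 and 0.17. Without control TNFα replicate 4, *Per2* was at -0.29 (adjusted p = 0.0959) and these 7 lay between -0.15 and 0.16. The median log2 difference was -0.096 for the members and -0.012 for all genes. No called member reached a log2 difference of 1 in either genotype comparison, against 1.26% of all genes with vehicle and 1.41% with TNFα.

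**Figure D4:**
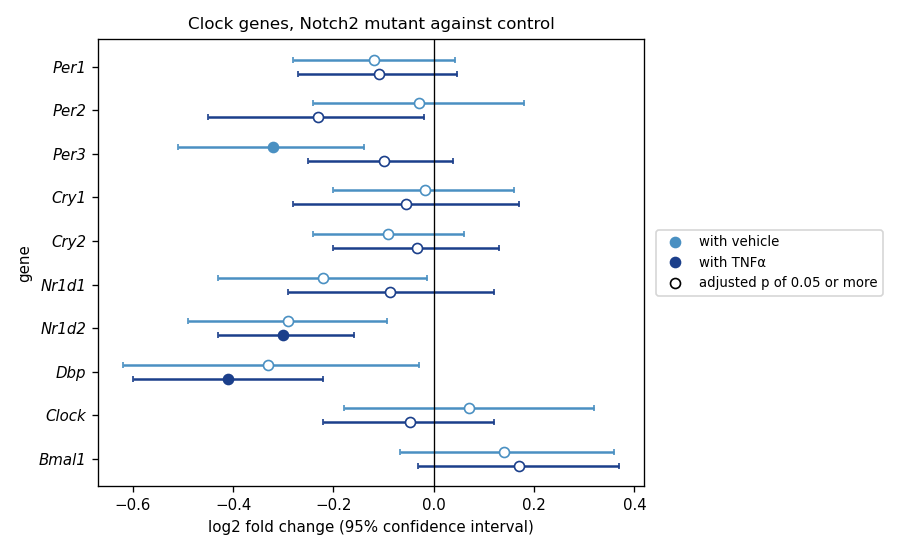
log2 fold change of *Notch2 tm1.1Ecan* over control cells for each clock gene (horizontal axis, points, with bars of the 95% confidence interval), with vehicle and with TNFα, and open points for an adjusted p of 0.05 or more. The filled points are *Per3* with vehicle at -0.32, and *Nr1d2* at -0.30 and *Dbp* at -0.41 with TNFα.

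Whether TNFα acted differently by genotype was asked with the interaction over all 16 libraries. 0 of the 10 members were called by edgeR, 0 had an unadjusted p under 0.05, and DESeq2 called 0. Of 21321 genes, 0.474% were called (0.267% higher and 0.206% lower, with 0.0469% at a log2 value of at least 1). The largest difference of changes was that of *Per3*, at log2 0.21 with a 95% interval of -0.017 to 0.44 (adjusted p = 0.634). *Per2* followed at -0.20, with an interval of -0.50 to 0.092. Without both control replicates 4, 0 members were called by edgeR, and the values of *Per3* and *Per2* were 0.15 and -0.20. The genotype calls on *Per3* with vehicle and on *Nr1d2* and *Dbp* with TNFα are thus not shown to differ between treatments.

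Cell type markers moved with both factors. All 10 chondrocyte markers were detected in every group, and 9 of them fell with TNFα in each genotype, where 20.9% and 21.9% of all genes were called lower. Of the macrophage markers, 3 of the 9 tested were called higher with TNFα in control cells and 7 of 10 in *Notch2 tm1.1Ecan* cells, against 23.3% and 22.6% of all genes. All 10 chondrocyte markers were lower in *Notch2 tm1.1Ecan* cells under both treatments, with a summed level of 50330 to 53620 CPM in control vehicle, 31210 to 36810 in *Notch2 tm1.1Ecan* vehicle, 34860 to 41440 in control TNFα and 19570 to 21560 CPM in *Notch2 tm1.1Ecan* TNFα libraries. Of 10 macrophage markers, 6 were higher in *Notch2 tm1.1Ecan* cells with vehicle and 8 with TNFα, at 28.5 to 31.3 against 54.6 to 64.2 CPM and at 37.1 to 41.4 against 80.4 to 89.9 CPM in sum, and none was at 0 throughout a group. Of all genes, 4.35% and 4.31% were called lower and 6.19% and 5.63% higher in these comparisons, with vehicle and with TNFα. The part of the markers in the clock gene differences was not tested. Fibroblast markers summed to 30510 to 41410 CPM over all libraries, with 6 of 8 called between genotypes under either treatment. Endothelial markers summed to at most 22.5 CPM (4 and 3 of 6 called, all higher in *Notch2 tm1.1Ecan* cells) and skeletal muscle markers to at most 44.7 CPM (4 and 2 of 8, all higher). Of 6 T and NK cell markers, 4 or 5 were at 0 in every library of a group.

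Other genes linked to the clock, most of them transcription factors, were read from a chosen list of 12. With TNFα, 5 were called in control cells, 4 of them higher, and 7 in *Notch2 tm1.1Ecan* cells, 6 of them higher, where 44.2% and 44.5% of all genes were called. The median log2 change was 0.26 in control and 0.39 in *Notch2 tm1.1Ecan* cells, against 0.039 and 0.026 over all genes. *Bhlhe41* encodes DEC2, a repressor that competes for E-boxes. It was at 6.13 to 7.04 CPM with vehicle and 10.3 to 14.2 CPM with TNFα in control cells (log2 0.98 ± 0.12, adjusted p = 4.93e-07), and at 4.19 to 5.32 and 9.77 to 14.8 CPM in *Notch2 tm1.1Ecan* cells (log2 1.49 ± 0.14, adjusted p = 1.14e-09). *Tef*, a relative of *Dbp* that binds the same D-box, was at 46.7 to 54.9 and 67.7 to 80.0 CPM in control cells (log2 0.57 ± 0.065, adjusted p = 2.18e-07) and rose by log2 0.55 ± 0.069 in *Notch2 tm1.1Ecan* cells (adjusted p = 1.56e-07). *Bmal2*, a relative of *Bmal1*, rose where *Bmal1* fell, from 2.83 to 3.52 CPM to 4.37 to 6.41 CPM in control cells (log2 0.85 ± 0.17, adjusted p = 0.000247) and by log2 1.04 ± 0.18 in *Notch2 tm1.1Ecan* cells (adjusted p = 2.02e-05). *Rora*, the gene of an ROR receptor, rose by log2 0.34 ± 0.071 in control cells (adjusted p = 0.000446) and 0.42 ± 0.094 in *Notch2 tm1.1Ecan* cells (adjusted p = 0.000504). *Npas2*, which can stand in for *Clock*, rose in *Notch2 tm1.1Ecan* cells (log2 0.62 ± 0.13, adjusted p = 0.000187) and was at log2 -0.040 ± 0.12 in control cells, but its interaction was not called (log2 0.67 ± 0.18, adjusted p = 0.0914). The called gene of this list that fell was *Bhlhe40* in control and *Timeless* in *Notch2 tm1.1Ecan* cells.

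**Figure D5:**
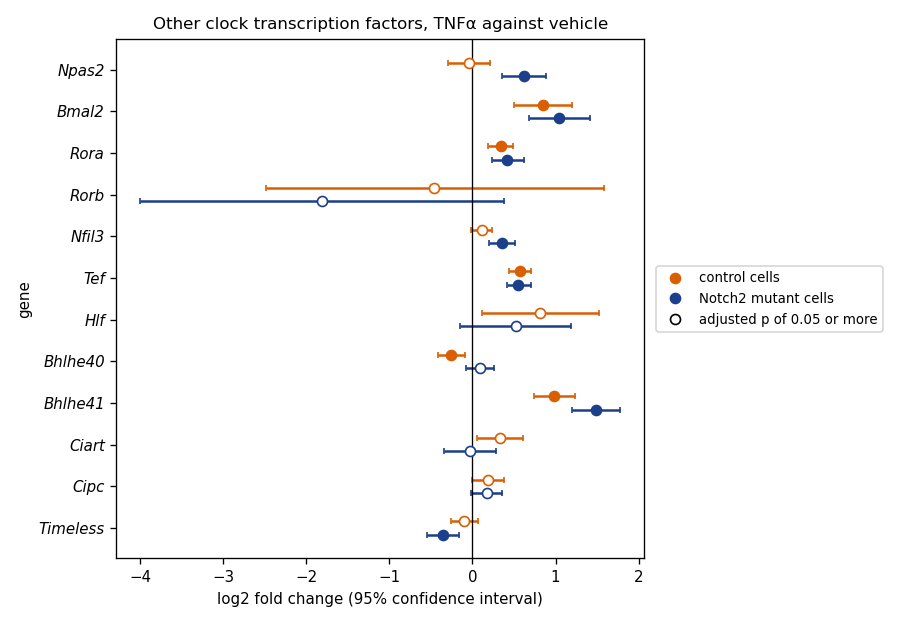
log2 fold change of TNFα over vehicle for 12 other genes linked to the clock, most of them transcription factors, in control and *Notch2 tm1.1Ecan* cells. Points lie along the horizontal axis, with bars of the 95% confidence interval and open points for an adjusted p of 0.05 or more. *Bhlhe41*, *Bmal2* and *Tef* have filled points above 0 in both genotypes, at 0.98, 0.85 and 0.57 in control cells, and *Rorb*, hardly detected, has the widest intervals.

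Between genotypes, 2 of these 12 genes were called with vehicle and 2 of the 11 tested with TNFα, against 10.5% and 9.94% of all genes. *Nfil3*, the repressor that opposes DBP at D-boxes, was higher with TNFα, at 47.9 to 62.9 against 36.6 to 40.1 CPM (log2 0.48 ± 0.074, adjusted p = 3.59e-05). With vehicle its difference of log2 0.22 ± 0.070 (adjusted p = 0.0452) lost its call without any single library (adjusted p = 0.0617 to 0.149). *Bhlhe41* was lower with vehicle (log2 -0.48 ± 0.14, adjusted p = 0.0214), a call lost without *Notch2 tm1.1Ecan* vehicle replicate 2 or 3 (adjusted p = 0.0601 and 0.0667). *Npas2* was higher with TNFα (log2 0.70 ± 0.14, adjusted p = 0.000928).

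Of 9 kinases and enzymes of ubiquitin transfer that set the stability of clock proteins, 4 were called with TNFα in each genotype, 2 of them higher in control and 1 in *Notch2 tm1.1Ecan* cells, with median log2 changes of -0.037 and -0.063. A count of 4 of 9 is read against the 44.2% and 44.5% of all genes called, and those medians against 0.039 and 0.026. The F-box gene *Fbxl21* rose by log2 0.70 ± 0.27 (adjusted p = 0.0376) and 1.33 ± 0.29 (adjusted p = 0.000397). The first of these calls was lost without control vehicle replicate 1, 2 or 3 or control TNFα replicate 2, 3 or 4 (adjusted p = 0.0523 to 0.185). The kinase gene *Csnk2a1* fell by 0.19 and 0.20 on the log2 scale, and *Usp2*, a deubiquitinase, fell by 0.53 in *Notch2 tm1.1Ecan* cells (adjusted p = 0.00322). The *Csnk2a1* call in *Notch2 tm1.1Ecan* cells was lost without vehicle replicate 2, 3 or 4 or TNFα replicate 1, 2 or 4 (adjusted p = 0.0544 to 0.160). *Csnk1e*, a kinase of the PER proteins, fell by 0.14 in control cells, a call lost without control vehicle replicate 3 or control TNFα replicate 1 (adjusted p = 0.0778 and 0.0708). *Csnk1d*, another PER kinase, rose by log2 0.13 ± 0.046 in control cells (adjusted p = 0.0300), and *Csnk1a1*, of the same kinase family, fell by 0.17 in *Notch2 tm1.1Ecan* cells (adjusted p = 0.0277). Each of these 2 calls was lost when any of 5 single libraries was left out, the first without replicate 1, 2 or 3 of vehicle or 1 or 3 of TNFα (adjusted p = 0.0585 to 0.101) and the second without replicate 2, 3 or 4 of vehicle or 1 or 3 of TNFα (adjusted p = 0.0670 to 0.124). Between genotypes 0 of the 9 were called by edgeR with vehicle (1 had an unadjusted p under 0.05), against 10.5% of all genes, and with TNFα the 1 called (9.94% of all genes), *Csnk1e*, was lost without any library but *Notch2 tm1.1Ecan* TNFα replicate 4 (adjusted p = 0.0678 to 0.15).

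Of 8 genes that the clock is known to drive, 6 were called with TNFα in control cells (4 higher) and 8 in *Notch2 tm1.1Ecan* cells (5 higher), where 44.2% and 44.5% of all genes were called. The list's median log2 changes were 0.42 and 0.43, against 0.039 and 0.026 over all genes. Whether the changes of these genes came through the clock was not tested. *Pdk4*, a kinase that limits glucose oxidation, rose by log2 2.30 ± 0.20 and 2.05 ± 0.096 (adjusted p = 7.23e-05 and 1.55e-15). *Lgals3bp* rose by log2 1.33 ± 0.19 and 1.46 ± 0.068, and *Nampt*, of NAD synthesis, by 0.60 ± 0.062 and 0.61 ± 0.081. *Cdkn1a*, which encodes the cell cycle inhibitor p21, rose by log2 0.81 ± 0.047 in control cells (adjusted p = 3.64e-11), and *Tspan4* fell by 0.61 in *Notch2 tm1.1Ecan* cells (adjusted p = 2.62e-09). In the other genotype, *Cdkn1a* was also called higher and *Tspan4* was also called lower. *Noct*, a rhythmic gene for a phosphatase of NADPH, was above its control level in mutant cells under both treatments, at log2 0.36 ± 0.10 with vehicle (adjusted p = 0.0239) and 0.48 ± 0.097 with TNFα (adjusted p = 0.00122). The first was lost without control vehicle replicate 1 or *Notch2 tm1.1Ecan* vehicle replicate 4 (adjusted p = 0.115 and 0.134). *Por* (log2 0.24 ± 0.062, adjusted p = 0.0106) and *Wee1* (log2 0.23 ± 0.071, adjusted p = 0.0336) were also higher with vehicle. With TNFα, *Cdkn1a* (log2 -0.26 ± 0.060, adjusted p = 0.00378) and *Nampt* (log2 -0.21 ± 0.062, adjusted p = 0.0270) were lower and *Lgals3bp* was higher (log2 0.22 ± 0.061, adjusted p = 0.0201). The *Wee1* call was lost without control vehicle replicate 2 or 3 or *Notch2 tm1.1Ecan* vehicle replicate 2, 3 or 4 (adjusted p = 0.101 to 0.142). The call on *Lgals3bp* was lost when replicate 1 or 4 of control TNFα cells, or 2 or 3 of *Notch2 tm1.1Ecan* TNFα cells, was left out, and that on *Nampt* when replicate 2 or 3 of the former, or 1 or 3 of the latter, was (adjusted p = 0.0565 to 0.0929). With all 16 libraries in one edgeR fit, the calls on *Lgals3bp* and *Nampt* were also lost (adjusted p = 0.486 and 0.0596).

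Genes that serum and glucocorticoids induce were read beside the clock, since both signals are known to set it. Of 10 serum response genes, 8 fell and 1 rose with TNFα in each genotype, where 20.9% and 21.9% of all genes were called lower and 23.3% and 22.6% higher. The median log2 changes were -1.14 and -1.23, against 0.039 and 0.026 over all genes. *Ccn2* fell by 2.79, *Ccn1* by 2.6 and *Fos* by 1.91 on the log2 scale in control cells (adjusted p = 0.00225, 0.00190 and 2.98e-10), and the gene that rose was *Egr2*. Without both control replicates 4, *Ccn2* was at -3.41, *Ccn1* at -3.16 and *Fos* at -2.08. The serum response list thus moved with the same comparison as the clock genes, and its part in their changes was not tested. It also moved between genotypes. In *Notch2 tm1.1Ecan* cells, 5 of its 10 genes were called higher with vehicle and 2 with TNFα, and none lower. Of all genes, 6.19% and 5.63% were called higher there. Of 7 glucocorticoid-responsive genes, 3 rose and 3 fell in control cells, with *Klf9* at log2 -0.74 ± 0.073, *Dusp1* at -0.60 ± 0.065 and *Fkbp5* at 0.39 ± 0.061 (adjusted p = 3.49e-08, 1.95e-07 and 1.92e-05), and 2 rose and 3 fell in *Notch2 tm1.1Ecan* cells. The medians of that list were -0.11 and -0.18. Between genotypes, 3 of its 7 genes were called lower in *Notch2 tm1.1Ecan* cells with vehicle and 2 with TNFα, and none higher. Of all genes, 4.35% and 4.31% were called lower there.

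Likeness of pattern was measured as the root mean square difference of log2 CPM over the 16 libraries, after each gene was centred on its mean, among 13427 genes with a mean of at least 1 CPM. The libraries share treatment, so many genes score as alike. For *Per3*, the nearest gene was *Sppl2a* (0.10) and the next was *Nr1d2* (0.11). For *Nr1d2* these were *Inpp1* (0.089) and *Sppl2a* (0.097), with *Per3* the 4th. For *Dbp*, *Barx1* was nearest (0.16) and *Nr1d2* next (0.17). In the other 7 members the nearest clock gene stood between 531st for *Per2* and 2699th for *Cry2*, and the genes nearest to them were *Slc44a1* and *Ptp4a2* for *Per1*, *Nek4* and *Uap1l1* for *Per2*, *Fitm2* and *Cdc25a* for *Cry1*, *Supt7l* and *4833439L19Rik* for *Cry2*, *Vipas39* and *Katnal2* for *Nr1d1*, *Skic3* and *Azin1* for *Clock*, and *Ssrp1* and *Sf3b4* for *Bmal1*.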

How the data were processed

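The data are 16 mRNA libraries made with a stranded kit and sequenced in one pool with paired reads. The authors trimmed, mapped and counted the reads, and deposited for each library raw whole-number counts per Ensembl gene. The study's methods name Trimmomatic, HISAT2, samtools and htseq-count on GRCm39, whereas the submitters' processing notes name GRCm38 with HISAT2 2.1.0, SAMtools 1.9, Picard, HTSeq and DESeq2. The 5 entries that name no gene (reads ambiguous between genes among them), with 8.81 to 12.1% of the counts of a library, were left out, and 665 identifiers absent from GENCODE M39 (GRCm39), used for names and positions, held 0.0182% of the counts.

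Counts were normalized with TMM, genes with at least 10 counts summed over the compared libraries were kept, and edgeR 4.0.16 in R 4.3.3 fitted a robust quasi-likelihood model to the 8 libraries of each comparison, or to all 16 for the interaction. P values were adjusted by Benjamini-Hochberg over all genes tested and called under 0.05. CPM values are scaled by TMM. Alternatives were DESeq2 1.42.0, RLE normalization, filterByExpr, a minimum of 1 count, an adjusted p under 0.1, a log2 change of at least 1, all libraries in one fit, a replicate block, each library left out in turn, and both control replicates 4 left out. Simulated counts with 200 changed genes were used to test the fit. They gave all genes the same spread and held no library that stood apart. Most clock genes changed by less than the simulated folds, so the simulation does not cover these conditions. The labels call replicates biological, but no source used here says which mice each came from, so p values measure the spread between these libraries. A floor of 3 counts covers counting error only. The confidence intervals on log2 changes come from the edgeR fits, as the p values do, and include the spread between these libraries.

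The 10 genes and the other lists were chosen with earlier results of these data known, and the genes opposite *Nr1d1*, *Dbp* and *Clock* were added for their overlap. Named genes were all members, the up to 4 called genes with the largest change in each clock list, the up to 3 in the serum and glucocorticoid lists for TNFα in control cells, and the 2 genes nearest in pattern to a member. Of the clock lists, 2 genes are not reported here and entered neither the counts nor this rule. Promoter windows came from RefSeq on GRCm38.p6 and were not mixed with GRCm39 positions.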

Additional observations from a re-analysis of the deposited data

Results flagged for a closer look

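Each member was examined in each group of 4 libraries for 1 value far from the other 3, by the ratio of its gap to the range of the group, and 3 of 40 were past Dixon's 95% limit (chance alone gives about 1 in 20). *Clock* was at 75.04 CPM in control vehicle replicate 2, against 63.4 to 64.8 CPM in the other 3 libraries. *Nr1d1* was at 15.47 CPM in *Notch2 tm1.1Ecan* vehicle replicate 2, against 20.9 to 21.3 CPM. *Cry2* was at 31.17 CPM in *Notch2 tm1.1Ecan* TNFα replicate 4, the library with the lowest total, against 28.6 to 28.9 CPM. The 3 values came from different genes, groups and libraries.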

How the results depend on the processing

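The count of members called with TNFα was 8 or 9 in either genotype under every alternative but the fold cutoff, which left 1 in each, and leaving out single libraries, which gave 7 to 9 in each. Between genotypes with vehicle the count of 1 became 2 at an adjusted p under 0.1, with DESeq2 and with all 16 libraries in one fit, 3 with a minimum of 1 count (*Per3*, *Nr1d2* and *Dbp*), 0 with the fold cutoff and 0 to 2 without single libraries. The cause was not tested. With TNFα the count was 2 throughout, also without each library (2 to 2), but 0 with the fold cutoff. For the interaction it was 0 throughout. Libraries with the same replicate number did not deviate together: the 16 correlations of same-numbered libraries of 2 groups lay between -0.17 and 0.106, so the numbers were not taken to pair cultures. Not every library correlated best with its own number. A replicate block gave 9 and 8 members with TNFα in control and *Notch2 tm1.1Ecan* cells, 3 and 2 between genotypes with vehicle and TNFα, and 0 in the interaction, adding *Nr1d2* and *Dbp* (adjusted p = 0.0174 and 0.0433) between genotypes with vehicle and losing *Per1* (adjusted p = 0.0572) with TNFα in *Notch2 tm1.1Ecan* cells.

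Log2 values near 0, none of them called, changed sign. Without single libraries, *Per2* ran from -0.092 to 0.020 and *Cry1* from -0.10 to 0.043 between genotypes with vehicle, and *Cry1* from -0.13 to 0.014, *Cry2* from -0.099 to 0.0051 and *Clock* from -0.11 to 0.019 with TNFα. In the interaction they ran from -0.045 to 0.039 for *Per1*, -0.096 to 0.037 for *Cry1*, -0.0086 to 0.091 for *Cry2*, -0.13 to 0.057 for *Nr1d2*, -0.20 to 0.049 for *Dbp* and -0.068 to 0.10 for *Bmal1*. With both control replicates 4 left out, interaction values were -0.031 for *Per1*, 0.088 for *Cry1* and -0.0024 for *Bmal1*. *Per1* was at -0.012 with a minimum of 1 count, and *Nr1d2* at 0.0016 with DESeq2, 0.0025 with RLE normalization and 0.00098 with filterByExpr.

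Over all genes, the interaction gave 101 calls, against 174 with DESeq2, 266 with a minimum of 1 count, 10 with the fold cutoff and 51 to 156 without single libraries. The fold cutoff left 2279 of 8542 and 2720 of 8745 calls for TNFα, and 244 of 2048 and 272 of 1912 between genotypes. No normalization moved the median of all genes by 0.1. With 35 to 181 counts per member, *Notch2 tm1.1Ecan* TNFα replicate 4 measures these genes least precisely.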
